A study of Mus musculus with 9 samples.

Results

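The Six-family, Eya and Dach regulators analyzed here comprised 9 genes, namely Six2, Six4 and Six5, Eya1, Eya2, Eya3 and Eya4, and Dach1 and Dach2. Their members were found by gene symbol in 1 list of ATAC-Seq regions, and 24 of its 17164 distinct regions were assigned to them. Of the 9 genes, 8 had at least 1 region and Eya2 had none. ATAC-Seq marks open chromatin by the sites at which the Tn5 transposase inserts sequencing adapters. The study asked whether chromatin opening depends on Isl1 or Brg1 in the tissue that forms the heart. Pharyngeal mesoderm together with the heart was taken from mouse embryos at E8.75, when they had 6 somites, and 9 libraries were made in 3 groups of 3. Controls were wild type (wt), a second group was Isl1-/-, and the third carried Isl1Cre+/- with Brg1fl/fl, in which Cre follows Isl1 expression and acts only in cells of that lineage. The reads of each group came from 3 embryos, as many as it had libraries. The list holds regions common to the 3 control libraries, in mm9 coordinates, with no height or score. The mutant groups were not analyzed here, no value below has a replicate error, no test was made, and the sequencing depth is unknown. The list holds no expression values either, so activity of these genes in pharyngeal cells was not checked.

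Proteins encoded by Six2 and its relatives are homeodomain transcription factors. Eya proteins bind them and act as coactivators, and they also carry a phosphatase domain. Dach proteins, which are related to the Ski corepressors, can join the same complexes and repress transcription. Pax genes often act with them, and the network is known for its roles in the pharyngeal arches, the ear, the kidney and skeletal muscle.

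The regions were unevenly divided among the genes. Eya1 had 8 regions, Dach1 had 7, Eya4 had 3 and Six2 had 2. Six4, Six5, Eya3 and Dach2 had 1 each. By family, the 3 Six-family genes held 4 regions, the 4 Eya genes 12 and the 2 Dach genes 8. The 24 regions gave a mean of 2.67 per member, Eya2 included. Over the 11541 genes in the list the mean was 1.49 and the median 1 per gene with a region. Genes with no region are left out of these, so the means have unlike bases. As background, 49.3% of 21027 protein-coding genes had an assigned region, compared with 8 of the 9 members. Only 0.39% of protein-coding genes had 7 or more regions, and 2 of the 9 members, Eya1 and Dach1, reached that number. These shares describe a list of genes chosen with earlier results of these data known. The cutoff of 7 equals the count of Dach1, so it is not independent of these genes. Counts of both Eya1 and Dach1 were lower when regions were assigned to the nearest start of any gene type.

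**Figure D1:**
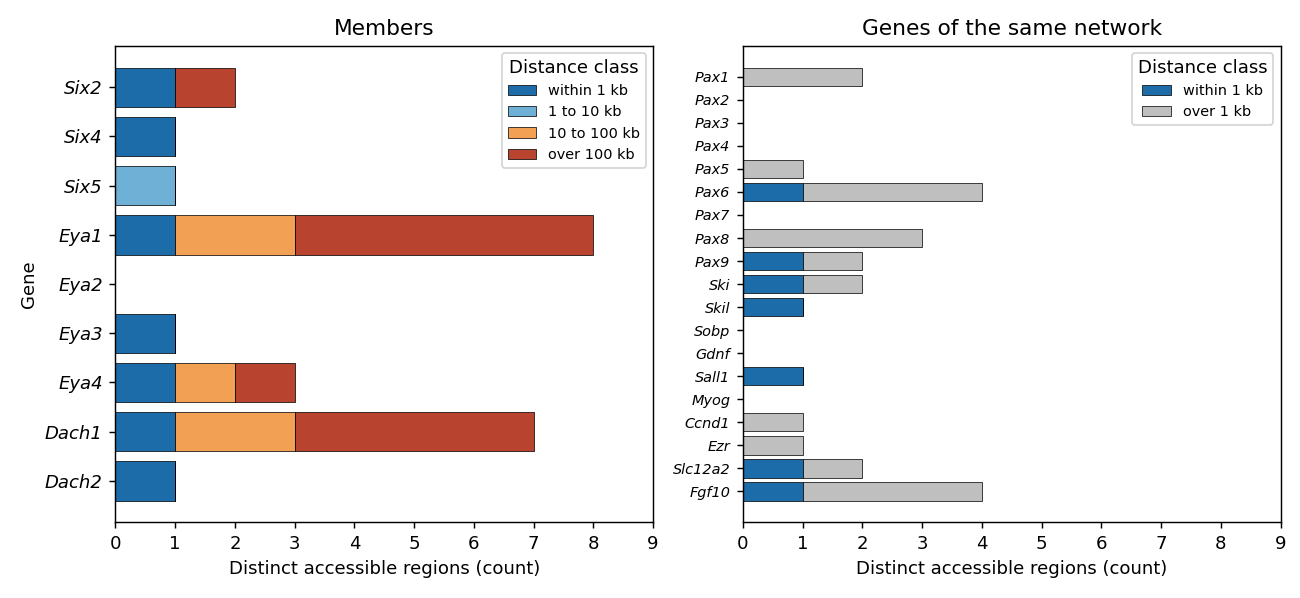
Number of distinct accessible regions (horizontal axis, count) for each of the 9 members (left) and for 19 genes of the same network (right), with bars divided by the distance of the region center from the transcription start site (TSS). Eya1 with 8 and Dach1 with 7 regions have the longest bars, and most of both bars is made of regions over 100 kb or between 10 and 100 kb away.

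Most regions of the members lay far from a start. The center was more than 10 kb from the assigned TSS in 16 of 24 regions (66.7%, 95% Wilson interval 46.7 to 82%, which covers counting error only), compared with 39.3% of all regions. Beyond 100 kb the numbers were 11 of 24 regions (45.8%) and 14.9% of all regions. Eya1 and Dach1 supplied 13 of the 16 regions beyond 10 kb, so the share mainly describes that pair. The other members held 9 regions, of which only 1 at Six2 and 2 at Eya4 were that far away. Without the pair, the share was therefore not above the 39.3% of all regions. Of the 16, 7 were upstream of the TSS and 9 downstream, and 7 lay in an intron of their own gene.

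**Figure D2:**
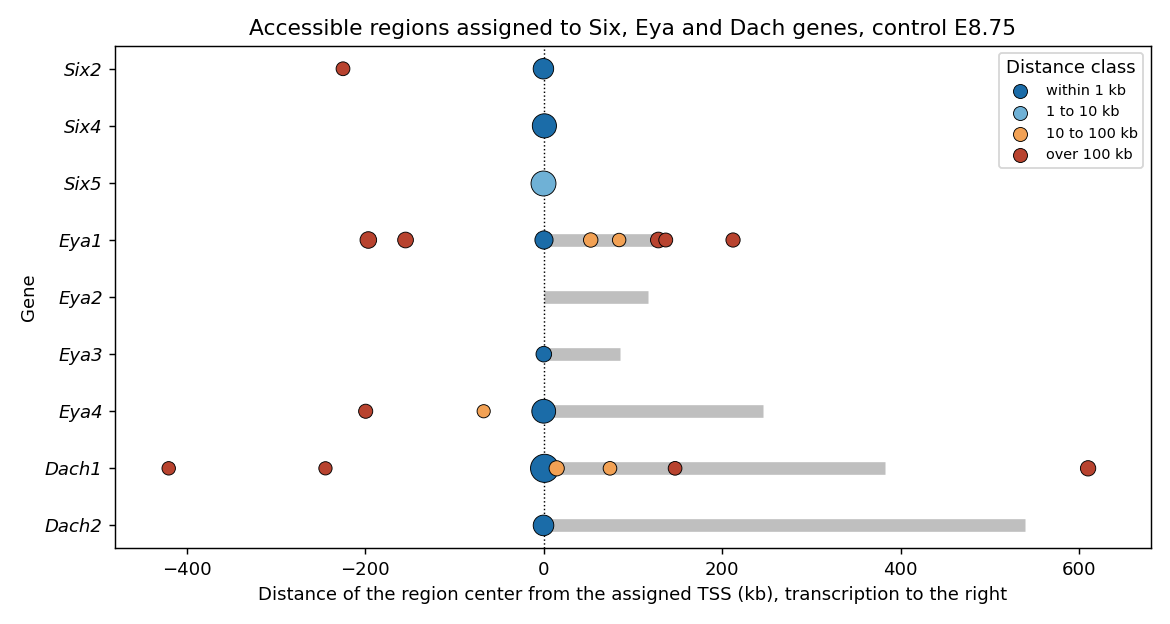
Position of each of the 24 regions relative to the assigned TSS of its gene (horizontal axis, kb, with transcription to the right; dotted line at the TSS). Each point is the center of 1 region, its area follows region width, its color gives the distance class, and gray bars show gene length. Eya1 and Dach1 have points on both sides of the start, from -420 kb to 610 kb at Dach1, whereas the distal points of Eya4 and Six2 are all upstream and Eya2 has none.

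Most members had a region at or near the start. A region was centered within 1 kb of the TSS at 7 of 9 members, namely Six2, Six4, Eya1, Eya3, Eya4, Dach1 and Dach2, compared with 40.6% of all protein-coding genes. Six5 differed by its center only. Its region covered the start, with a center 1010 bp upstream. With Six5 counted, a region covered the assigned start in 8 members. The share of all genes with a covered start was not computed, so the 40.6% is not a background for this count. Just inside the 1 kb limit were the regions of Dach1, centered 972 bp downstream, and Six4, centered 750 bp downstream.

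Six2, which maintains the progenitors of the kidney nephron, had a region of 1799 bp over its start (chr17:86087025-86088823, minus strand gene). This region had the highest CpG frequency of the 24, at 9.01 CpG per 100 bp. The other Six2 region, 817 bp wide (chr17:86312134-86312950), was intergenic, 224948 bp upstream of the TSS, and had the lowest CpG frequency of the 24, at 0.367 per 100 bp. The nearest region to either was the other one, 223310 bp away. The bases just upstream of the start and at the center of the distal region are shown here, since the pair holds the highest and the lowest CpG frequency. In these and all sequences below, read 5′ to 3′ on the strand of the gene in mm9, capitals mark any match to the 7 motifs described further on.
Six2 upstream of the start, chr17:86087595-86087794, minus strand: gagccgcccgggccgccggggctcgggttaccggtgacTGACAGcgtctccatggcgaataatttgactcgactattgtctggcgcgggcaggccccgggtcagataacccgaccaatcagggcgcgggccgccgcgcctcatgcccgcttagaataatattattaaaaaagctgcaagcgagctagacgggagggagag
Six2 distal region, center, chr17:86312443-86312642, minus strand: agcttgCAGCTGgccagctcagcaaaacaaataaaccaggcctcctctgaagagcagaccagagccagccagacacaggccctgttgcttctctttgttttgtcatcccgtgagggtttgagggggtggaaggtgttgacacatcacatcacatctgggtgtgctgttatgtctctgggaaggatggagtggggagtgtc
In the first sequence the capitals are the Meis and Pbx letters TGACAG, and in the second they are the E-box CAGCTG.

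Six4, a family member active in muscle precursors and sensory tissue, had 1 region of 2501 bp (chr12:74212232-74214732), which covered both of its annotated starts. Its center lay in an exon of Six4. Six5, which lies directly downstream of the myotonic dystrophy protein kinase gene Dmpk, had 1 region of 2671 bp (chr7:19677548-19680218). This region overlapped exons of both genes and its center lay in an exon of Dmpk, so accessibility of the Six5 start and of the end of Dmpk cannot be told apart. Among regions 1 to 10 kb from a TSS, it was wider than 97.2%. That class had a median width of 1039 bp, and regions within 1 kb of a TSS had a median of 1294 bp. Since the Six5 region covers a start, the second class is the closer comparison. Its upper quartile was 1612.5 bp. Six5 also had the most crowded surroundings of the 9, with 10 regions inside the gene or within 100 kb of it, of which 9 were assigned to other genes. The sequence upstream of Six4 is given from its outermost annotated start, because the 200 bases before the assigned start held an annotated exon.
Six4 upstream of the start, chr12:74214402-74214601, minus strand: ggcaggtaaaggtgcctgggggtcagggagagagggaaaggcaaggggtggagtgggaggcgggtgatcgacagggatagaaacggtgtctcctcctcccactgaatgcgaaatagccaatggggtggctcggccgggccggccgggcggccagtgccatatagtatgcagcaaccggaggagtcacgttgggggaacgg
It held none of the 7 motifs. The 200 bases before the assigned start, not shown whole, held 1 match to the motif of Six-family proteins, which is the second Six4 match given further on.

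Eya1, whose loss disrupts ear, kidney and thymus formation, had the most regions, which together covered 8090 bp over a span of 410 kb on chromosome 1. A region of 1415 bp covered the start (chr1:14299284-14300698). Upstream, 2 intergenic regions were centered 154852 bp (chr1:14454602-14455662) and 196556 bp (chr1:14496247-14497426) from the TSS. Inside the gene, 4 regions lay in introns, counted along the longest annotated transcript, which has 17 of them. They were in intron 7 (chr1:14247176-14248070), intron 11 (chr1:14215371-14216149), intron 16 (chr1:14171269-14172327) and intron 17 (chr1:14163119-14163951), at distances of 52657, 84520, 128482 and 136745 bp. The regions of introns 16 and 17 were the closest pair among all members' regions, 7317 bp apart. The last region (chr1:14087688-14088555) was 212159 bp downstream of the start and 70914 bp beyond the end of the gene.

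The farther upstream region of Eya1 stood apart in base composition. Its GC content was 60.1%, and its CpG frequency of 5.59 per 100 bp exceeded that of 98.2% of all regions over 100 kb from a TSS. The start region of the same gene had 47.1% GC and 4.1 CpG per 100 bp, the lowest GC content among the 7 start regions. No annotated exon or start of any gene overlapped the distal region. It was also the widest region more than 10 kb from the TSS of any member, at 1180 bp. Its central bases are shown next to those upstream of the Eya1 start.
Eya1 upstream of the start, chr1:14300282-14300481, minus strand: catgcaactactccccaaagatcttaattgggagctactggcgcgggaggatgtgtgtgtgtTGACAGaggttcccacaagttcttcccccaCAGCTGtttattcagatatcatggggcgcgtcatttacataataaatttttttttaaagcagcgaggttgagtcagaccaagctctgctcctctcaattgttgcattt
Eya1 distal region 196556 bp upstream, center, chr1:14496737-14496936, minus strand: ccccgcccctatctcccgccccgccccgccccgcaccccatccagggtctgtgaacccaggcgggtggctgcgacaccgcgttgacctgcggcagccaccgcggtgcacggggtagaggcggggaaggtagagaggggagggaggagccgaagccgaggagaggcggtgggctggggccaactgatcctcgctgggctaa
The central 200 bases of the distal region were 72.5% GC and held no motif, and the bases upstream of the start were 45% GC and held an E-box and the Meis and Pbx letters.

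Eya3 had 1 region of 1043 bp at its start (chr4:132194531-132195573), which covered 8 of its 11 annotated start positions and was the narrowest of the start regions. Eya4, mutated in forms of human hearing loss and cardiomyopathy, had 3 regions. One of 2434 bp (chr10:23068535-23070968) was centered 2 bp upstream of the TSS, and the other 2 were intergenic and upstream. These were 746 bp wide at 67295 bp (chr10:23136672-23137417) and 854 bp wide at 199533 bp (chr10:23268856-23269709). None of the 3 had its center inside the Eya4 gene, which is 246 kb long. Start sequences of both genes and the center of the wider distal region of Eya4 held none of the motifs.
Eya3 upstream of the start, chr4:132194702-132194901, plus strand: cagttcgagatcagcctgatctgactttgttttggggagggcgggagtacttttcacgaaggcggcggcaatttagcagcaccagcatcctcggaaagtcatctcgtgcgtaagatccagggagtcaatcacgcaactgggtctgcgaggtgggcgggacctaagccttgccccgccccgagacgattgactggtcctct
Eya4 upstream of the start, chr10:23069750-23069949, minus strand: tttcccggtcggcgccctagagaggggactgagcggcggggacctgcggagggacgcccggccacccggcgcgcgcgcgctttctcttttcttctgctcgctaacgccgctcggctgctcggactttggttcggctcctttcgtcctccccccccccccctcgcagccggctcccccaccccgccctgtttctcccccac
Eya4 distal region, center, chr10:23269183-23269382, minus strand: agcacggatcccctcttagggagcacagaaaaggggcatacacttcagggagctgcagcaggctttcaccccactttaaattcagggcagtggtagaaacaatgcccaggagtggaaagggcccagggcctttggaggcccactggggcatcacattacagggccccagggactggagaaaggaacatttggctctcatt
For Eya3, as for Eya1, Six4 and Dach2, the bases precede the outermost annotated start.

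Eya2, which has roles in muscle and sensory precursors, was the only member without a region. No region of any gene was centered in Eya2 (chromosome 2, 165480798 to 165597227, plus strand) or within 100 kb of it. The nearest regions were assigned to Elmo2, ending 328 kb before the gene, and to Ncoa3, starting 196 kb after it. The stretch between them was 640 kb long. Of 17143 gaps between neighboring regions, 596 (3.48%) were at least that long, and the median gap was 72839 bp. That share counts each gap once. Long gaps hold more bases than short ones, so it is not the share of the genome or of genes in such gaps. Having no region was common, since 49.3% of 21027 protein-coding genes had an assigned region. The stretch contained the outermost starts of 8 protein-coding genes, among them Zmynd8, so it was not specific to Eya2. The highest CpG frequency within 500 bp of an Eya2 start was 2.8 per 100 bp, the lowest of the 9 genes, whose other values ran from 4.1 at Dach2 to 12.1 at Six2. A start without a region in the list may still be accessible in some of the cells or libraries.

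Dach1, a corepressor expressed in limb, eye and other embryonic tissue, had 7 regions that covered 8532 bp over a span of 1031 kb on chromosome 14. The region at its start was the widest of the 24, at 3396 bp (chr14:98566315-98569710), and wider than 99.7% of all regions within 1 kb of a TSS. It covered all 3 annotated start positions. Downstream, 3 regions lay in intron 1, at 14527 bp (chr14:98553961-98554953), 74254 bp (chr14:98494332-98495129) and 147201 bp (chr14:98421381-98422186). A further region (chr14:97958432-97959439) was 610049 bp downstream of the start, the farthest of all members' regions, and 227131 bp beyond the end of the gene. Upstream, regions of 755 bp (chr14:98813216-98813970) and 776 bp (chr14:98988871-98989646) were centered 244609 and 420274 bp from the TSS. The farthest region had the lowest GC content of the 24, at 34.9%.
Dach1 upstream of the start, chr14:98568985-98569184, minus strand: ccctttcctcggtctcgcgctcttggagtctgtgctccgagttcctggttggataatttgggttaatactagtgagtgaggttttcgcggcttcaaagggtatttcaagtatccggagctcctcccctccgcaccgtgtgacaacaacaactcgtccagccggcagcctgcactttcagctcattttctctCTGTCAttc
Dach1 distal region 610049 bp downstream, center, chr14:97958836-97959035, minus strand: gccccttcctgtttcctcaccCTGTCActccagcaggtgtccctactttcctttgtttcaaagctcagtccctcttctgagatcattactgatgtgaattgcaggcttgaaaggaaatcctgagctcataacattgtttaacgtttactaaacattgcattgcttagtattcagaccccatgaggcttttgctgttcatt
Both Dach1 sequences held the Meis and Pbx letters, read here as CTGTCA.

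Dach2, its X-linked relative, had 1 region of 1822 bp (chrX:110410713-110412534), centered 242 bp upstream of the TSS and covering 7 of 9 annotated start positions. No other region lay in Dach2 or within 100 kb of it, although the gene is 539 kb long and Dach1 is 383 kb long. The paralogs therefore differed in the list by 7 regions against 1, with both starts covered. Of the start regions, that of Dach2 had the lowest CpG frequency, at 3.51 per 100 bp. The bases before its outermost annotated start held no motif.
Dach2 upstream of the start, chrX:110410919-110411118, plus strand: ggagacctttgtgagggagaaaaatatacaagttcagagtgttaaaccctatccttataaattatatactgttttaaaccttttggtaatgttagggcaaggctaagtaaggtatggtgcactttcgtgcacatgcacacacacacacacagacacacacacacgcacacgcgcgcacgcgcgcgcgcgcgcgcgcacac

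The number of regions was set beside the room each gene has. Territory was taken as the stretch between the neighboring protein-coding genes, and all its regions were counted whatever their assignment. Across the genome, the list held 6.47 regions per Mb. Eya1, between Xkr9 and Msc, had a territory of 1052 kb with 8 regions, or 7.61 per Mb. Dach1, between Klhl1 and Mzt1, had 2515 kb with 8 regions, or 3.18 per Mb, below the density of the whole list. Eya4, between Tcf21 and Rps12, had 965 kb with 3 regions (3.11 per Mb), and Dach2, between Chm and Klhl4, had 1289 kb with 2 regions (1.55 per Mb). Six2 had 353 kb with 2 regions (5.67 per Mb) and Eya3 had 142 kb with 1 region (7.03 per Mb). Six4 had 77 kb with 2 regions (26 per Mb), Eya2 had 264 kb with none, and Six5 had 7.73 kb with no region centered in it. Density was thus above that of the whole list for Six4, Eya1 and Eya3. At Eya3 this rested on 1 region, and at Six4 on 2, of which 1 was assigned to Six4. With so few regions, these densities cannot set a gene apart from the whole list. Eya1 and Dach1, alike in number of regions, differed in density.

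Widths separated the starts from the distal regions. The 7 start regions had a median of 1822 bp and ran from 1043 bp at Eya3 to 3396 bp at Dach1, compared with a median of 1294 bp and an upper quartile of 1612.5 bp for all 9083 regions of that class. Of the 7, 5 were above that quartile, namely those of Six2, Six4, Eya4, Dach1 and Dach2. The 16 regions beyond 10 kb had a median of 843.5 bp and ran from 746 to 1180 bp, and 11 of them were narrower than the median of 937 bp for all regions that far away. The distal and start regions of the members overlapped in width only between 1043 and 1180 bp. CpG frequency was below the median of the same distance class in 12 of 16 distal regions.

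**Figure D3:**
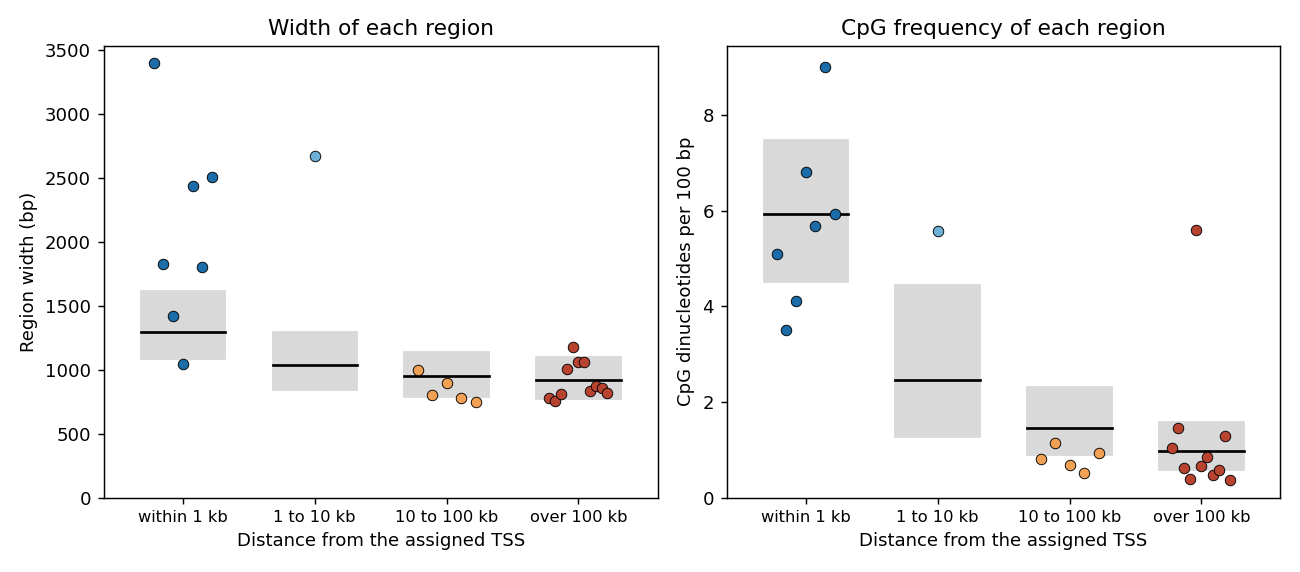
Width in bp (left) and CpG dinucleotides per 100 bp (right) of the 24 regions, by distance from the assigned TSS. Points are single regions, gray boxes run from the lower to the upper quartile of all regions in the class, and black lines are their medians. Start regions reach 3396 bp and mostly lie above the gray box, and 1 region over 100 kb away, upstream of Eya1, stands at 5.59 CpG per 100 bp.

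The regions were searched for 7 short motifs on both strands, within the central 300 bp and over the whole region. These were TCAGGTT for the core of the MEF3 site bound by Six-family proteins, CTAATG for Isl1, TAATTA for other homeodomain proteins, GATAAG for GATA factors, CATTCC for TEAD factors, CAGCTG for the E-box of bHLH proteins and TGACAG for Meis and Pbx. Each motif was counted by itself, also where it shared bases with another. The MEF3 letters were in the central window of 0 of 24 regions, compared with 3.38% of all regions, and among the regions over 1 kb from a TSS in 0 of 17, compared with 4.42%. Over whole regions, whose shares also depend on width, they were in 2 of 24, and in 14.7% of all regions. Both belonged to Six-family genes, with 2 matches in the Six4 region and 1 in the Six5 region. They are shown with 10 bases on each side, on the strand of the match, and in these short sequences, as in those of the Isl1 letters, capitals mark only the match named.
Six4 region, first match, chr12:74212618-74212644, plus strand: ttgttcagaaTCAGGTTtcaaaacacc
Six4 region, second match, chr12:74214313-74214339, plus strand: atctggccgaTCAGGTTtcccccaggc
Six5 region, chr7:19679274-19679300, plus strand: agcgcacgaaTCAGGTTgaagggtggg

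The Isl1 letters were in the central window of 2 of 24 regions, compared with 6.85% of all regions, and both were among the 17 regions over 1 kb from a TSS, where the share in the whole list was 11.2%. Over whole regions they were in 9 of 24, compared with 26.9% of all. All 9 belonged to Eya1, with 5 of 8 regions, or Dach1, with 4 of 7 regions. The other 9 regions, those of the remaining genes, held none. By class, the letters were in 2 of 7 start regions, compared with 22.4% of all such regions. Over 1 kb from a TSS they were in 7 of 17, compared with 31.9%. Eya1 and Dach1 hold most of the members' regions, and the split by gene was not tested. Both central matches were in introns of Eya1, 63 bp from the center in intron 7 and 61 bp from it in intron 16, and the region of intron 11 held a pair of matches farther from its center.
Eya1 intron 7, chr1:14247674-14247699, plus strand: gactcttcctCTAATGagcatgacag
Eya1 intron 16, chr1:14171847-14171872, plus strand: acccagggcaCTAATGtgtgctcagg
Eya1 intron 11, first match, chr1:14215935-14215960, plus strand: ctacccaattCTAATGtcccctaatg

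For the other motifs, the Meis and Pbx letters were in the central window of 6 of 24 regions and in 18.5% of all, the E-box in 5 and 19.6%, and the TEAD letters in 2 and 15.4%. The GATA letters were in 1 of 24 regions, compared with 6.46% of all, and the homeodomain letters were in 1, compared with 4.33%. Among the 17 regions over 1 kb from a TSS, the Meis and Pbx letters were in 5 (23.3% of all such regions) and the E-box in 4 (23.6%). There, the TEAD letters were in 2 (22.2%), the GATA letters in 1 (9.95%) and the homeodomain letters in 1 (8.11%). The 17 include the Six5 region, which covers its start and held both the TEAD letters and the E-box in its central window. The GATA, homeodomain and TEAD letters met in the central window of 1 region, that of Eya1 intron 17. These counts describe letters in a window, not binding.

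**Figure D4:**
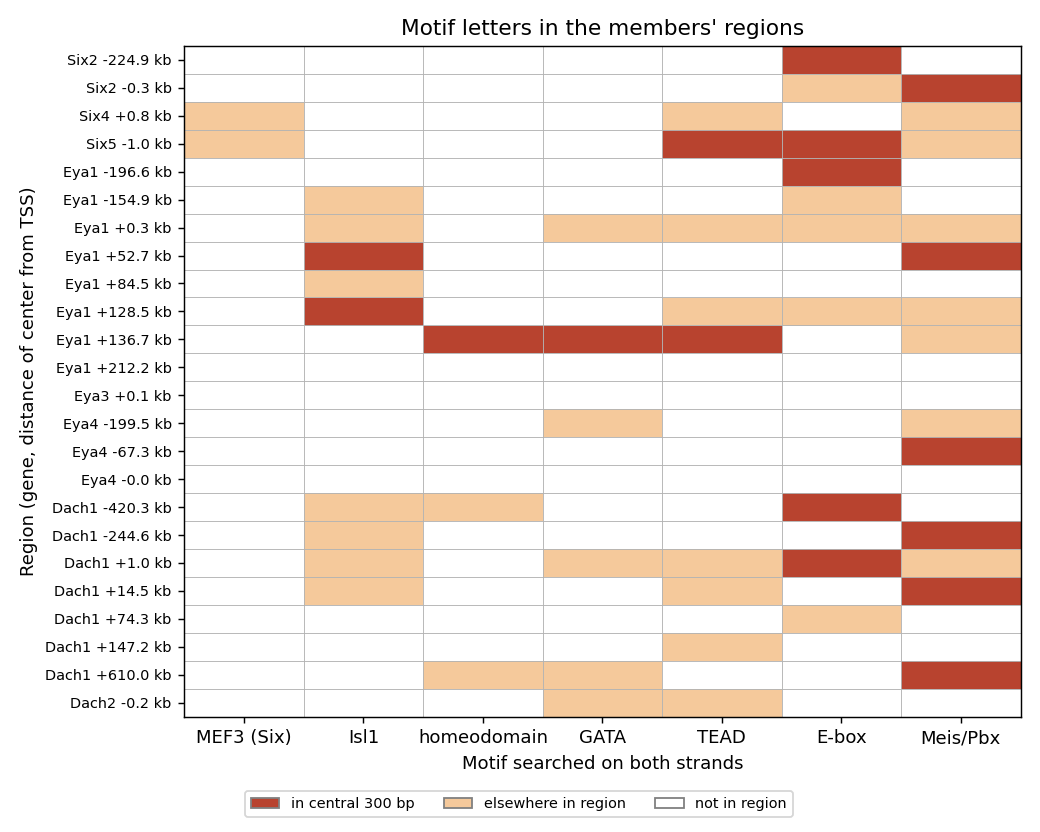
Presence of the 7 motifs (columns) in each of the 24 regions (rows, named by gene and distance of the center from the TSS in kb). Dark cells mark a match in the central 300 bp, light cells a match elsewhere in the region, and white cells none. The Isl1 column is filled only in rows of Eya1 and Dach1, and the leftmost column, of the MEF3 letters, only in those of Six4 and Six5.

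Other genes of the network were set beside the members. Of 19 genes, 12 had a region and 7 had none, with a median of 1 region per gene, and 7 had one within 1 kb of the TSS. Over all protein-coding genes these shares were 49.3% with a region and 40.6% with one within 1 kb, so the number with an open start was near the background. Among the 9 Pax genes, 5 had a region and 2 had one at the start. Pax6, an eye and neural regulator, had 4 regions, the widest of 3667 bp. Pax8, a thyroid and kidney regulator, had 3, all more than 10 kb away and as far as 132850 bp upstream. Among 7 known targets or partners of the complex, 5 had a region, namely Sall1, Ccnd1, Ezr, Slc12a2 and Fgf10, and 3 had one at the start. Fgf10, which encodes a growth factor of the second heart field, had 4, of which 1 was at its start. Both Dach relatives, Ski and Skil, had a region at the start. Sobp, a cofactor of the Six-family proteins, had none, and neither did the targets Gdnf and Myog. No gene of the 19 reached the 7 regions of Dach1.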

How the data were processed

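ATAC-Seq libraries from pharyngeal mesoderm and heart at E8.75 were grouped by genotype, and 1 list for the control group was used. According to the methods, the authors aligned reads to mm9 using bowtie2, filtered them with samtools, took out duplicates with Picard 1.136, called peaks in each library with MACS14 and a fixed shift, and discarded blacklisted peaks. Regions sharing at least 1 bp between replicates were kept with bedtools. An offset for Tn5 insertion and the tool that assigned genes to these regions are not given in the sources used here. The deposited columns are positions and signed distances to the TSS in bp, and 0 columns were left unmapped. A common region carries the coordinates of 1 library, and regions missing from any library are left out, so absence from the list does not show closed chromatin.

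Positions were read as 1-based and closed. Repeated rows were counted once, so that 27 rows of the members gave 24 regions (3 were listed 2 times). Bases were read from the NCBIM37 assembly, which is mm9, and gene structure from GENCODE on that assembly. Assigned starts inferred from the distances were within 48 bp of an annotated start. The background of 21027 protein-coding genes came from the RefSeq table of GRCm38.p6, matched by accession, symbol or synonym, with no coordinates taken from it. A center within 1 kb counted as at the start. Motif counting was tested on simulated data. All 9 members are named, with every region of each. Sequences shown are the 200 bases before the assigned start, or before the outermost annotated start where the former held an exon, a change made after the annotation was seen, and the central 200 bases of the widest region over 1 kb away. That of Six5 held an exon and is not shown. The members, gene lists and motifs were chosen with earlier results of these data known. Python 3.11.15, numpy 2.4.6, pandas 2.3.3 and pysam 0.24.0 were used.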

Additional observations from a re-analysis of the deposited data

How the results depend on the processing

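Of 20 recomputed values, 12 stayed within 1.5 times the reported count or inside its 95% interval. Among the 12 was the number of regions centered in a member or within 100 kb of it, which was 30. Of these 30, 17 were assigned to that member and 13 to other genes, so a similar count came from a different set of regions. Assigning each region to the nearest annotated start of any gene type left 14 regions with the members. The 10 others went to Srbd1 (1), itself protein-coding, or to small or noncoding genes and a pseudogene. Of these, 4 went to AC156988.1 at Eya1 and 1 to Gm16331 at Dach1. The region counts of Eya1 and Dach1 were therefore lower under this setting. With the outermost starts of protein-coding genes alone, an alternative chosen after seeing the data, the number was 24 again. That setting also leaves out further starts within a gene, including the Srbd1 start that had taken 1 region. Keeping only regions of at least 1123 bp, the median width of the list, left 8 regions, of which 12.5% were more than 10 kb from the TSS. The distal regions are narrow, so this follows from the filter, and the prevalence of distal regions depends on it. Searching whole regions in place of the central 300 bp raised the shares with the Isl1 and TEAD letters to 37.5% each, the GATA letters to 25%, the E-box to 41.7% and the Meis and Pbx letters to 54.2%, since more sequence was searched. The same search over all regions gave 26.9% for Isl1, 46.8% for TEAD, 25.1% for GATA, 49.6% for the E-box and 54.2% for Meis and Pbx. Without Eya1, 56.2% of regions were more than 10 kb away. Merging, also among the 12, could change nothing because no regions overlapped (0 pairs). No paired analysis was possible because the list is common to the 3 control libraries and carries no replicate number. Without values per library, none of the 3 could be left out in turn.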
